A study of Rattus with 6 samples.

Results

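The genes of the CDCP1 and Src family kinase axis were examined across 6 RNA-seq libraries of vascular smooth muscle cells from aorta. They are Cdcp1, the 4 Src family kinase genes Src, Fyn, Yes1 and Lyn, the inhibitory kinase gene Csk, and Prkcd, Ptk2, Pxn and Itgb1, whose products work with CDCP1 or Src at the plasma membrane and at adhesion sites. These 10 genes were taken by name from the 54012 genes of the deposited table, where each name occurred once. The cells are labelled as primary culture, and all 6 cultures received angiotensin II (Ang II), a vasoconstrictor peptide, after siRNA transfection. The si-NC group (3 libraries, genotype label WT) received a negative control siRNA and the si-CDCP1 group (3 libraries, genotype label CDCP1 knockdown) an siRNA against CDCP1. The strain and age of the animals, the dose and duration of Ang II and the sequence of the siRNA are not stated in the labels. The series title places the study in carotid artery stenosis, with an interest in autophagy of mitochondria.

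CDCP1 is a single-pass membrane glycoprotein with extracellular CUB domains. Src family kinases phosphorylate tyrosines in its cytoplasmic tail, and phosphorylated CDCP1 then binds protein kinase C delta, so that both kinases meet at the membrane. Src family kinases are held closed by CSK, which phosphorylates a tyrosine near their C terminus, and are opened when integrins cluster and focal adhesion kinase (FAK) recruits them to paxillin-containing adhesions. In smooth muscle, Src family kinases carry signals from the Ang II receptor to growth and migration. Most of this regulation acts on proteins through phosphorylation, which RNA levels do not measure.

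Reads assigned to genes numbered from 16050517 to 19771638 per library. The organism label is rat, but the table lists mouse Ensembl genes on mm10, a mouse build, so a gene can be near 0 although the cells made its transcript. Names of all 10 genes also exist as rat gene symbols in RefSeq. One library, si-CDCP1 replicate 3, stood apart, with correlations of 0.979 to 0.983 with the other 5 on the log2 scale, and results that rest on it are given with and without it. Of 9 contractile smooth muscle markers, Acta2 (mean 42.1 FPKM) and Smtn (8.55 FPKM) passed the filter of a mean of 1 FPKM, and the other 7, among them the defining markers Myh11 and Cnn1 with means of 0.0241 and 0.0657 FPKM, did not. Of 6 fibroblast markers 4 passed, with Col1a1 at 278 and Pdgfra at 9.53 FPKM. The summed level of the 5 endothelial markers was 0.676 to 0.742 FPKM in si-NC and 0.802 to 0.874 FPKM in si-CDCP1, with Cdh5 at 0. That of the 7 blood and macrophage markers was 1.30 to 1.35 FPKM in si-NC and 0.727 to 0.891 FPKM in si-CDCP1, nearly all of it Cd68, with Cd3e, Adgre1 and Itgam at 0. All 5 epithelial markers had means under 0.1 FPKM. The part of these differences in the results below was not tested, and in bulk RNA fewer cells of a type and less RNA per cell cannot be told apart.

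Levels are in FPKM, fragments counted per length of gene and per size of library, a scale that adjusts for the length listed for each gene. The label is rat and the gene models are mouse, so orders, shares and ratios between genes may differ from those of the transcripts. That was not tested. Differences are on the log2(FPKM + 1) scale and come from limma, a linear model with a moderated variance, fitted over the 12080 genes whose mean reached 1 FPKM and adjusted over all of them by Benjamini-Hochberg (BH). Of the 10 genes, 9 passed that filter and Cdcp1 did not. The 9 were tested in the fit over all genes, and 0 of them passed a BH-adjusted p of 0.05. The share of all genes tested that passed was 0 percent. At an unadjusted p under 0.05, limma gave 1 of the 9, Fyn, against 14.3 percent of all genes (8.94 percent higher and 5.31 percent lower in si-CDCP1). With equal FPKM sums in every library it gave 0 of the 9, and 1838 of 12084 genes over all. A second test, limma's voom on the reads recovered from the FPKM, called 0 of the 9 and 0.0348 percent of all genes, and without si-CDCP1 replicate 3 it called 0 of the 9 and 3.46 percent of all genes. Log2 differences were positive for 4 and negative for 5 of the 9 genes, and positive for 52.3 percent of all genes tested. The labels do not say that the cultures came from separate animals, so the p-values reflect only how much these libraries vary, and that variation may be technical.

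**Figure D1:**
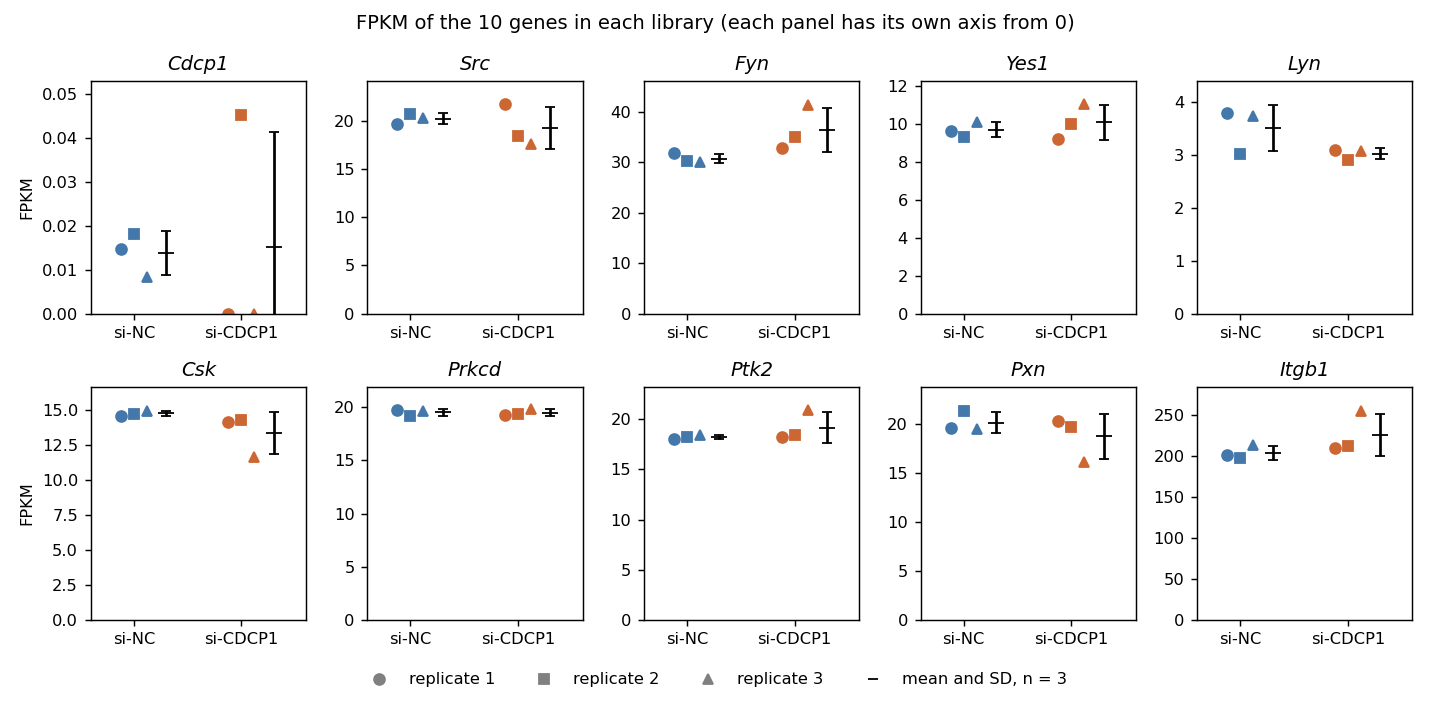
FPKM of the 10 genes (y axis, from 0, a separate scale for each gene) in the si-NC and si-CDCP1 libraries, with symbols for replicates 1, 2 and 3 and, beside them, the mean and SD of 3 libraries. Cdcp1 lies below 0.05 FPKM in every library, and for Fyn and Csk the 2 groups do not overlap.

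Cdcp1, the target of the siRNA, was barely detected in either group, so the knockdown could not be checked at the RNA level. The gene (ENSMUSG00000035498, protein coding, minus strand of mm10 chromosome 9, from 123170824 to 123216038) is 6765 bases long in the table. It was at 0.0147, 0.0181 and 0.00827 FPKM in si-NC replicates 1, 2 and 3, which stand for 2, 2 and 1 reads. In si-CDCP1 it was listed at 0 in replicates 1 and 3 and at 0.0453 FPKM, or 5 reads, in replicate 2. A floor of 3 reads lay between 0.0221 and 0.0284 FPKM, and only si-CDCP1 replicate 2 was above it. Divided by library size, the si-CDCP1 reads came to 1.07 times the si-NC reads (exact binomial 95% interval 0.247 to 4.66), and an exact two-sided permutation test on FPKM gave p = 1, where 3 against 3 libraries can reach no less than 0.1. All 5 reads of the si-CDCP1 group came from 1 library, and without it the ratio was 0. The interval covers counting error only, and it is wide on both sides of 1.

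Apart from Cdcp1, the genes of the axis ranged from percentile 22.2 (Lyn) to percentile 98.8 (Itgb1) of the levels of all tested genes. Itgb1 was the most abundant, with a mean of 214.9 FPKM over the 6 libraries. Fyn followed with a mean of 33.6 FPKM and was below Itgb1 and above every other gene of the axis in all 6 libraries. Src, Prkcd, Pxn and Ptk2 formed a group with means of 19.7, 19.5, 19.4 and 18.7 FPKM, in which neighbours overlapped, Src being above Prkcd in 3 of 6 libraries and Pxn above Ptk2 in 5 of 6. Csk at 14.1, Yes1 at 9.89 and Lyn at 3.27 FPKM came next, and the ranges of these 3 over the 6 libraries did not overlap with those of their neighbours in the order.

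Fyn, a Src family kinase found in most tissues that also acts in T cells and myelinating glia, had the largest log2 difference in size among the tested axis genes with all 6 libraries weighted equally and the deposited scale. Lyn's was larger in size than that of Fyn without si-CDCP1 replicate 3 (-0.17 against 0.14), without si-NC replicate 2 (-0.24 against 0.22), with library weights (-0.21 against 0.18) and with equal FPKM sums (-0.20 against 0.18). Fyn was at 31.8, 30.4 and 30.1 FPKM in si-NC replicates 1, 2 and 3 and at 32.8, 35.1 and 41.4 FPKM in si-CDCP1 replicates 1, 2 and 3. Every si-CDCP1 library was above every si-NC library, and replicate 3 was the highest. Group means were 30.8 ± 0.912 and 36.4 ± 4.43 FPKM (SD, n = 3 per group). The log2 difference was 0.23 (SE 0.085, limma 95% interval 0.030 to 0.43; limma BH-adjusted p = 0.320). Without si-CDCP1 replicate 3 the log2 difference was 0.14 (95% interval 0.027 to 0.25), and the groups still did not overlap, with an adjusted p of 0.231 in limma. With library weights, by which limma gives noisier libraries less influence, the log2 difference was 0.18 and the BH-adjusted p 0.0465, in a fit that called 7.16 percent of all genes. The weights were 0.600, 5.11 and 0.165 for si-CDCP1 replicates 1, 2 and 3 and 1.33, 1.08 and 1.37 for si-NC. The si-CDCP1 side of that fit, for Fyn and for all genes, thus rests mostly on replicate 2. The adjusted p of Fyn ranged from 0.0465 to 0.643 over the fits tried. The FPKM of all genes summed to 281392, 280056 and 282051 in si-NC replicates 1, 2 and 3. These sums were 294678, 286916 and 294437 in si-CDCP1 replicates 1, 2 and 3, all above those of si-NC. With equal FPKM sums the log2 difference of Fyn was 0.18 (limma unadjusted p = 0.0704). On that scale the groups of Fyn overlap, since si-CDCP1 replicate 1 falls below si-NC replicate 1. The Fyn model (ENSMUSG00000019843, plus strand of mm10 chromosome 10, from 39368855 to 39565381) overlaps 2 antisense genes, Gm16364 and Gm16365, with 117 and 107 reads over the 6 libraries. How strand was handled in counting is not known, so reads of Fyn and of these genes cannot be told apart where they overlap.

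Src, the founding member of the family and the kinase best known to phosphorylate CDCP1, had no difference that passed adjustment. It was at 19.6, 20.7 and 20.3 FPKM in si-NC replicates 1, 2 and 3 and at 21.7, 18.4 and 17.5 FPKM in si-CDCP1 replicates 1, 2 and 3. The si-CDCP1 group held both the highest library, replicate 1, and the 2 lowest, and so spanned the si-NC group on both sides. The log2 difference was -0.08 (SE 0.080, 95% interval -0.27 to 0.11; limma BH-adjusted p = 0.668). It was -0.017 without si-CDCP1 replicate 3 and -0.16 without si-CDCP1 replicate 1 (unadjusted p = 0.0269, limma BH-adjusted p = 0.253), so that its size depended on which si-CDCP1 library was left out. Src (ENSMUSG00000027646) lies on the plus strand of mm10 chromosome 2, from 157418444 to 157471862, and overlaps no other gene of the table.

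Yes1, a close relative of Src that is found in many tissues, was at 9.64, 9.34 and 10.1 FPKM in si-NC replicates 1, 2 and 3 and at 9.20, 9.99 and 11.1 FPKM in si-CDCP1 replicates 1, 2 and 3. The groups overlapped, and si-CDCP1 held both the lowest and the highest library. The log2 difference of Yes1 was 0.05 (95% interval -0.12 to 0.22; limma BH-adjusted p = 0.770) and turned to -0.013 without si-CDCP1 replicate 3. Lyn, which in blood cells both starts and dampens receptor signalling, was the least abundant of the 4 kinases, with 193 to 310 reads per library. It was at 3.79, 3.01 and 3.73 FPKM in si-NC replicates 1, 2 and 3 and at 3.09, 2.91 and 3.08 FPKM in si-CDCP1 replicates 1, 2 and 3. All si-CDCP1 libraries lay at or near the level of si-NC replicate 2, the lowest of its group, and the groups overlapped. The log2 difference of Lyn was -0.16 (95% interval -0.37 to 0.052; limma BH-adjusted p = 0.430). It was -0.17 without si-CDCP1 replicate 3, -0.21 with library weights and -0.24 without si-NC replicate 2, with limma BH-adjusted p-values of 0.449, 0.111 and 0.643. Yes1 (ENSMUSG00000014932, mm10 chromosome 5, from 32611171 to 32687057) and Lyn (ENSMUSG00000042228, mm10 chromosome 4, from 3678115 to 3813122) are both on the plus strand. The gene models that overlap them, none of them protein coding, had means under 0.2 FPKM.

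As parts of their own sum, the 4 kinases kept the order Fyn, Src, Yes1 and Lyn in all 6 libraries. Their summed level was 64.9, 63.4 and 64.3 FPKM in si-NC replicates 1, 2 and 3 and 66.8, 66.4 and 73.1 FPKM in si-CDCP1 replicates 1, 2 and 3. With the FPKM of all genes scaled to equal sums, si-CDCP1 replicate 1 falls below si-NC replicates 1 and 3, and the groups overlap. Fyn made up 49.0, 47.9 and 46.9 percent of that sum in si-NC and 49.1, 52.9 and 56.6 percent in si-CDCP1. Src made up 30.3, 32.6 and 31.6 percent in si-NC and 32.5, 27.7 and 24.01 percent in si-CDCP1. Yes1 made up 14.9, 14.7 and 15.7 percent in si-NC and 13.8, 15.1 and 15.1 percent in si-CDCP1. Lyn made up 5.84, 4.75 and 5.81 percent in si-NC and 4.63, 4.38 and 4.22 percent in si-CDCP1. The shares of Src and Yes1 overlapped between the groups, whereas every si-CDCP1 share was above every si-NC share for Fyn and below for Lyn, in each case by a small margin for the nearest pair of libraries. The ratio of Fyn to Src was 1.62, 1.47 and 1.48 in si-NC and 1.51, 1.91 and 2.36 in si-CDCP1, so that si-CDCP1 replicate 1 lay within the si-NC range and replicates 2 and 3 above it. An exact permutation test gave p = 0.1 for the summed level on the deposited scale and for the shares of Fyn and Lyn. No smaller p than 0.1 can be reached with 3 against 3 libraries. The same permutation test gave p = 0.3 for the share of Src, 0.6 for that of Yes1 and 0.2 for the ratio of Fyn to Src.

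Csk, whose product phosphorylates the inhibitory tail tyrosine of the Src family, had lower values in si-CDCP1. It was at 14.6, 14.8 and 15.0 FPKM in si-NC replicates 1, 2 and 3 and at 14.2, 14.3 and 11.7 FPKM in si-CDCP1 replicates 1, 2 and 3. All 3 si-CDCP1 libraries were below all 3 si-NC libraries, but replicates 1 and 2 only slightly and replicate 3 clearly. The means were 14.8 ± 0.185 and 13.4 ± 1.48 FPKM (SD, n = 3 each), with a log2 difference of -0.14 (SE 0.080, 95% interval -0.33 to 0.050; limma BH-adjusted p = 0.440). For Csk that difference shrank to -0.05 (95% interval -0.14 to 0.043) when si-CDCP1 replicate 3 was left out. Csk (ENSMUSG00000032312) lies on the minus strand of mm10 chromosome 9, from 57626646 to 57653631, and overlaps no other gene of the table. Per library, the level of Csk over the summed level of the 4 kinases was 0.225, 0.233 and 0.233 in si-NC and 0.212, 0.215 and 0.160 in si-CDCP1. That ratio was lower in every si-CDCP1 library than in any si-NC library. This follows from the values above, since on the deposited scale Csk was lower and the summed level higher in every si-CDCP1 library. It is no separate result.

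On the deposited FPKM scale, 2 of the 9 genes thus had groups that do not overlap, 1 higher (Fyn) and 1 lower (Csk) in si-CDCP1. The share of all genes tested was 25.0 percent (14.4 percent higher and 10.6 percent lower). Without si-CDCP1 replicate 3 the same 2 genes had groups that did not overlap, against 36.0 percent of all genes. The share in the axis was therefore close to or below that of genes in general.

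Prkcd, which encodes protein kinase C delta, the kinase that binds phosphorylated CDCP1, had the narrowest interval of the 9 genes. It was at 19.8, 19.2 and 19.6 FPKM in si-NC replicates 1, 2 and 3 and at 19.2, 19.4 and 19.9 FPKM in si-CDCP1 replicates 1, 2 and 3. The groups covered the same range. The log2 difference of Prkcd was -0.0030 (SE 0.045, 95% interval -0.11 to 0.10; limma BH-adjusted p = 0.982), so that a change of the transcript by more than about 0.11 on that scale lies outside the interval. The spread within the groups, 1.62 and 1.71 percent of the mean, was no larger than counting alone would give (2.32 percent). Prkcd (ENSMUSG00000021948) lies on the minus strand of mm10 chromosome 14, from 30595354 to 30626210.

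Among the 3 adhesion genes, si-CDCP1 replicate 3 was the highest library for Itgb1 and Ptk2 and the lowest for Pxn. Itgb1 encodes integrin beta1, the common chain of most receptors for collagen, laminin and fibronectin. It was at 201, 197 and 213 FPKM in si-NC replicates 1, 2 and 3 and at 210.01, 212 and 255 FPKM in si-CDCP1 replicates 1, 2 and 3. Only replicate 3 of si-CDCP1 lay above the si-NC range. The log2 difference of Itgb1 was 0.14 (95% interval -0.055 to 0.34; limma BH-adjusted p = 0.446), and 0.05 without that library. Itgb1 (ENSMUSG00000025809) lies on the plus strand of mm10 chromosome 8, from 128685654 to 128733200.

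Ptk2, which encodes FAK, the kinase that docks Src at adhesions, was at 18.1, 18.2 and 18.4 FPKM in si-NC replicates 1, 2 and 3 and at 18.2, 18.4 and 20.9 FPKM in si-CDCP1 replicates 1, 2 and 3. The other 5 libraries lay within a narrow range, and si-CDCP1 replicate 3 was above them. The log2 difference of Ptk2 was 0.07 (95% interval -0.082 to 0.22; limma BH-adjusted p = 0.625), and 0.0059 without that library. Pxn encodes paxillin, the adaptor that FAK and Src phosphorylate. It was at 19.5, 21.3 and 19.4 FPKM in si-NC replicates 1, 2 and 3 and at 20.3, 19.7 and 16.1 FPKM in si-CDCP1 replicates 1, 2 and 3. Here si-CDCP1 replicate 3 was the lowest library and si-NC replicate 2 the highest, and the others lay close together. The log2 difference of Pxn was -0.10 (95% interval -0.32 to 0.11; limma BH-adjusted p = 0.602), and -0.0052 without that library. Ptk2 (ENSMUSG00000022607) lies on the minus strand of mm10 chromosome 15, from 73205102 to 73423280, and Pxn (ENSMUSG00000029528) on the plus strand of chromosome 5, from 115506676 to 115555987. The small noncoding and pseudogene models that overlap them had means under 1 FPKM.

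**Figure D2:**
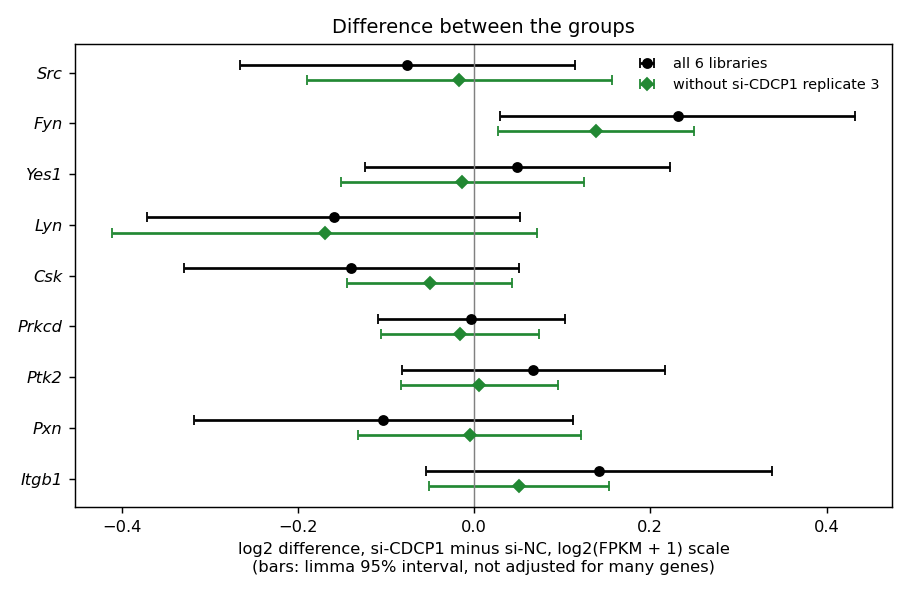
Log2 difference, si-CDCP1 minus si-NC, on the log2(FPKM + 1) scale (x axis) for the 9 tested genes (y axis), with the limma 95% interval, for all 6 libraries (black circles) and without si-CDCP1 replicate 3 (green diamonds). The interval of Fyn alone lies above 0 in both fits, from 0.030 to 0.43 and from 0.027 to 0.25, before adjustment over all genes.

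In 8 of the 9 tested genes si-CDCP1 replicate 3 was the highest or the lowest library. It was the highest for Fyn, Yes1, Prkcd, Ptk2 and Itgb1 and the lowest for Src, Csk and Pxn, and Lyn was the exception. The same was true of 64.0 percent of all genes tested (34.0 percent highest and 30.0 percent lowest). The deviation of that library from the mean of the 6 was 0.30 for Fyn, 0.25 for Itgb1, -0.25 for Csk and -0.25 for Pxn on the log2(FPKM + 1) scale, against deviations between -0.14 and 0.17 in the other 5 libraries over the 9 genes. For Fyn, Csk, Itgb1, Ptk2, Pxn and Src the spread in si-CDCP1 was between 7.93 and 12.2 percent of the mean and in si-NC between 1.06 and 5.30 percent. Yes1 had spreads of 9.22 percent in si-CDCP1 and 3.97 percent in si-NC and Prkcd of 1.71 and 1.62 percent, while for Lyn the order was reversed, with 3.45 percent in si-CDCP1 and 12.4 percent in si-NC. The part of this library in each difference is shown by the values without it above.

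**Figure D3:**
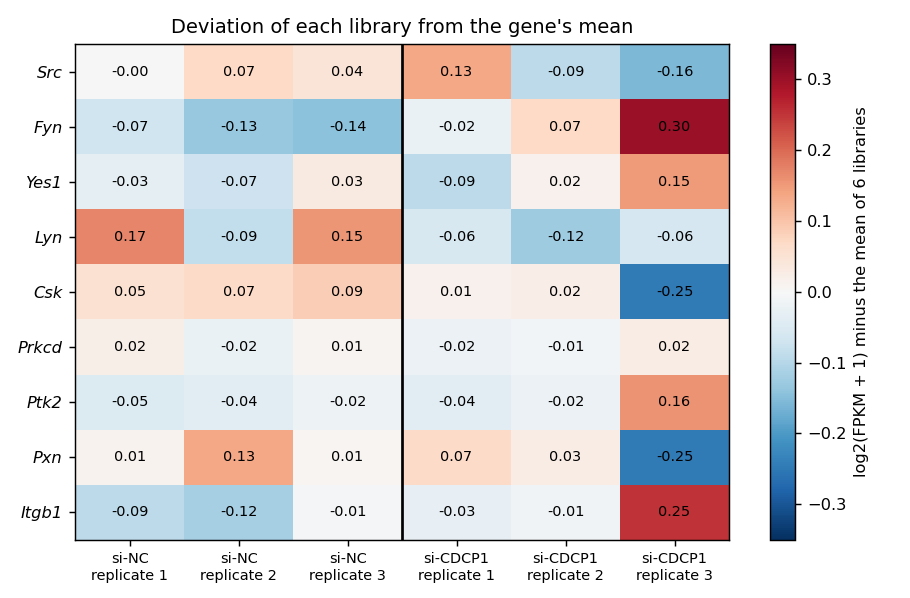
Deviation of each library (columns) from the mean of the 6 libraries on the log2(FPKM + 1) scale for the 9 tested genes (rows), printed in each cell and shown from blue (lower) to red (higher). The strongest colours stand in the column of si-CDCP1 replicate 3, red for Fyn (0.30) and Itgb1 (0.25) and blue for Csk (-0.25) and Pxn (-0.25).

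The 4 kinases share a domain order, an SH3 domain that binds proline-rich stretches, an SH2 domain that binds phosphotyrosine and a tyrosine kinase domain. Of the genes for which the annotation in the deposited table lists these 3 domains, 16 are reported here, 15 of them protein coding, and these 4 are among them. Csk, which has the same domains, carries no domain entry there, so the annotation is incomplete. Of the 16 genes, 8 passed the filter of 1 FPKM and 7 had means under 0.1 FPKM. Abl2, a relative of the Abl kinase, averaged 15.6 FPKM over the 6 libraries, between Src and Yes1. Fgr and Blk, family members of myeloid and B cells, had means of 0.00249 and 0 FPKM.

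Lck and Frk were 2 further kinases of this kind with levels above that of Lyn. Lck, which is best known as the Src family kinase of T cells, was at 5.66, 6.18 and 6.09 FPKM in si-NC replicates 1, 2 and 3 and at 7.36, 5.95 and 7.53 FPKM in si-CDCP1 replicates 1, 2 and 3, on 284 to 373 reads per library. The groups overlapped, with a log2 difference of 0.18 (95% interval -0.031 to 0.40; limma BH-adjusted p = 0.391). The T cell gene Cd3e was listed at 0 in all 6 libraries, and Ptprc, a marker of all white blood cells, had a mean of 0.0030 FPKM. The only gene of the table that overlaps Lck (mm10 chromosome 4, from 129548344 to 129573641) is Mir8119, which was at 0. Frk, a kinase mostly described in epithelium, had si-NC and si-CDCP1 means of 4.83 ± 0.342 and 4.93 ± 0.257 FPKM (SD, n = 3 per group).

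**Figure D4:**
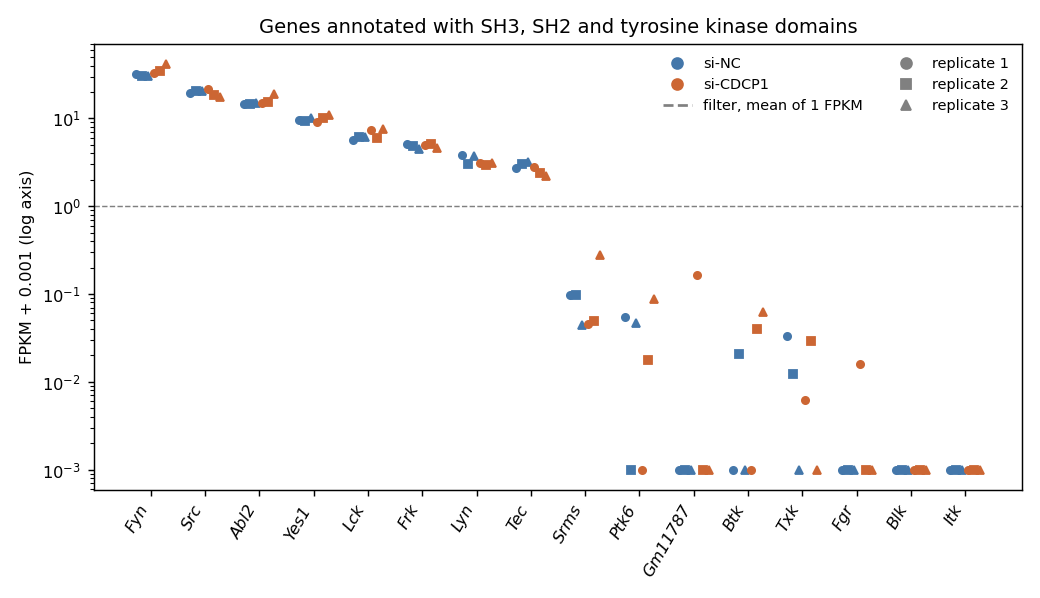
FPKM + 0.001 (y axis, log scale) of 16 genes annotated with SH3, SH2 and tyrosine kinase domains (x axis, by falling mean) in each library, coloured by group, with a dashed line at the filter of 1 FPKM. A gap separates the 8 genes above the line, Fyn to Tec, from the others, all of which have means near or under 0.1 FPKM.

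The wider pathway was read from 6 further lists, and 0 of their genes passed the BH-adjusted threshold in limma in either direction. Median log2 differences of the lists are set beside 0.0077, the median over all 12080 genes. Of 10 other Src-related kinases, 5 were tested, with 3 positive and 2 negative log2 differences. Abl1, a kinase activated downstream of Src, had a mean of 18.1 ± 0.581 FPKM in the si-NC libraries and of 16.6 ± 0.727 FPKM in the si-CDCP1 libraries (SD, n = 3 per group, and so for the pairs of means below, with si-NC first). Its groups did not overlap, with a log2 difference of -0.12 (limma BH-adjusted p = 0.368). Abl1 was the only one of the 5 with such groups, where the share over all genes was 25.0 percent.

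Of 22 regulators of Src family kinases, among them phosphatases, ubiquitin ligases and chaperones, 17 were tested. Log2 differences were positive for 7 and negative for 10, and their median was -0.0071, which ranged from -0.028 to 0.0011 with 1 library left out and was -0.052 with equal FPKM sums. At an unadjusted p under 0.05, 1 of the 17 was higher and 1 lower, where the shares over all genes were 8.94 and 5.31 percent. Groups that do not overlap were found for 1 gene higher and 3 genes lower, where the shares over all genes were 14.4 and 10.6 percent. Ptpn2, a tyrosine phosphatase that acts on several Src family kinases, was at 14.4, 14.3 and 14.7 FPKM in si-NC replicates 1, 2 and 3 and at 15.9, 16.4 and 19.1 FPKM in si-CDCP1 replicates 1, 2 and 3. Its log2 difference was 0.22 (limma BH-adjusted p = 0.3001), and the groups did not overlap. Cbl, a ubiquitin ligase that marks active receptors and kinases for degradation, averaged 10.2 ± 0.115 against 9.21 ± 0.436 FPKM, a log2 difference of -0.13 (limma BH-adjusted p = 0.3503). The most abundant gene of the list was Hsp90ab1, a chaperone on which the Src kinase depends, with a mean of 669.9 FPKM. Pag1, the membrane anchor of CSK, averaged 3.13 ± 0.122 against 3.11 ± 0.0390 FPKM.

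Of 37 adaptors and substrates of Src and FAK, 33 were tested. Log2 differences were positive for 14 and negative for 19, and their median was -0.0064. It was -0.031 without si-CDCP1 replicate 3, 0.0077 without si-NC replicate 2 and -0.059 with equal FPKM sums. Groups that do not overlap were found for 8 genes lower and 1 gene higher in si-CDCP1, where the shares over all genes were 10.6 and 14.4 percent. At an unadjusted p under 0.05, 3 were lower and 0 higher, where the shares over all genes were 5.31 and 8.94 percent. Parva, which encodes alpha-parvin, a link between integrins and actin, was at 19.1, 18.5 and 19.2 FPKM in si-NC replicates 1, 2 and 3 and at 16.9, 16.9 and 16.8 FPKM in si-CDCP1 replicates 1, 2 and 3. These are 2 tight groups, with a log2 difference of -0.16 (SE 0.045; limma BH-adjusted p = 0.279). Tns2, a tensin of adhesion sites, averaged 31.8 ± 2.14 against 28.2 ± 0.638 FPKM, a log2 difference of -0.17 (limma BH-adjusted p = 0.320). Tln1, which encodes talin, the activator of integrins, was the most abundant of the list with a mean of 61.9 FPKM. Bcar1, the scaffold p130Cas that Src phosphorylates, averaged 35.3 ± 3.26 against 32.6 ± 0.179 FPKM.

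Of 16 integrin genes and binding proteins, 8 were tested, with a median log2 difference of -0.08, and -0.06 without si-CDCP1 replicate 3. The median was -0.14 with equal FPKM sums, -0.035 with the filter at 0.1 FPKM and -0.0070 over the listed genes with no filter. Groups that do not overlap were found for 3 genes lower (Itga3, Itga5 and Itgb5) and 1 gene higher in si-CDCP1. The shares over all genes were 10.6 percent lower and 14.4 percent higher. Itga3, the laminin-binding partner of beta1, averaged 32.5 ± 1.49 against 27.5 ± 3.32 FPKM, a log2 difference of -0.24 (limma BH-adjusted p = 0.323), with groups that did not overlap. Itga7, another laminin-binding chain, averaged 2.87 ± 0.3504 against 2.32 ± 0.368 FPKM, with overlapping groups. The fibronectin-binding chain Itga5 was at 46.4, 46.97 and 47.5 FPKM in si-NC and 44.8, 44.8 and 43.4 FPKM in si-CDCP1, lower in all 3 libraries. Itgb5 was the most abundant of the list, with a mean of 51.3 FPKM. Itgb1 itself, which pairs with Itga3, Itga5 and Itga7, had a positive log2 difference (0.14).

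Of 11 protein kinase C and D isoforms besides Prkcd, 5 were tested and 6 had means under 0.1 FPKM. Prkci, an atypical isoform, was the most abundant with a mean of 25.2 FPKM, and Prkd2 had the smallest p, at 5.94 ± 0.417 against 4.99 ± 0.541 FPKM and a log2 difference of -0.21 (limma BH-adjusted p = 0.342). The 2 groups of Prkd2 overlapped. Prkcd, at 19.5 FPKM, thus ranked between Prkci and the other isoforms with Prkd3 at 16.0 FPKM next.

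Of 18 genes for proteases that cut CDCP1, its reported binding partner CD6, its receptor partners and others such as Arf6, 12 were tested. Log2 differences were positive for 7 and negative for 5. Their median was 0.0068, and it was -0.0083 without si-CDCP1 replicate 3 and -0.039 with equal FPKM sums. Groups that do not overlap were found for 1 gene higher and 1 gene lower in si-CDCP1, where the shares over all genes were 14.4 and 10.6 percent. Arf6, a small GTPase of membrane traffic, was at 67.4, 67.9 and 72.8 FPKM in si-NC replicates 1, 2 and 3 and at 85.7, 80.1 and 88.4 FPKM in si-CDCP1 replicates 1, 2 and 3. Its groups were clearly apart, with a log2 difference of 0.28 (SE 0.057; limma BH-adjusted p = 0.267). Plau, the protease urokinase, averaged 3.38 ± 0.967 against 2.42 ± 0.591 FPKM with overlapping groups, and the receptor kinase Axl, the most abundant of the list, 140.4 ± 4.13 against 134.2 ± 6.35 FPKM. The other CDCP1-cutting proteases of the list, St14 (matriptase) and Plg (plasminogen), and the binding partner gene Cd6 had means of 0.0212, 0.00349 and 0.00314 FPKM.

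**Figure D5:**
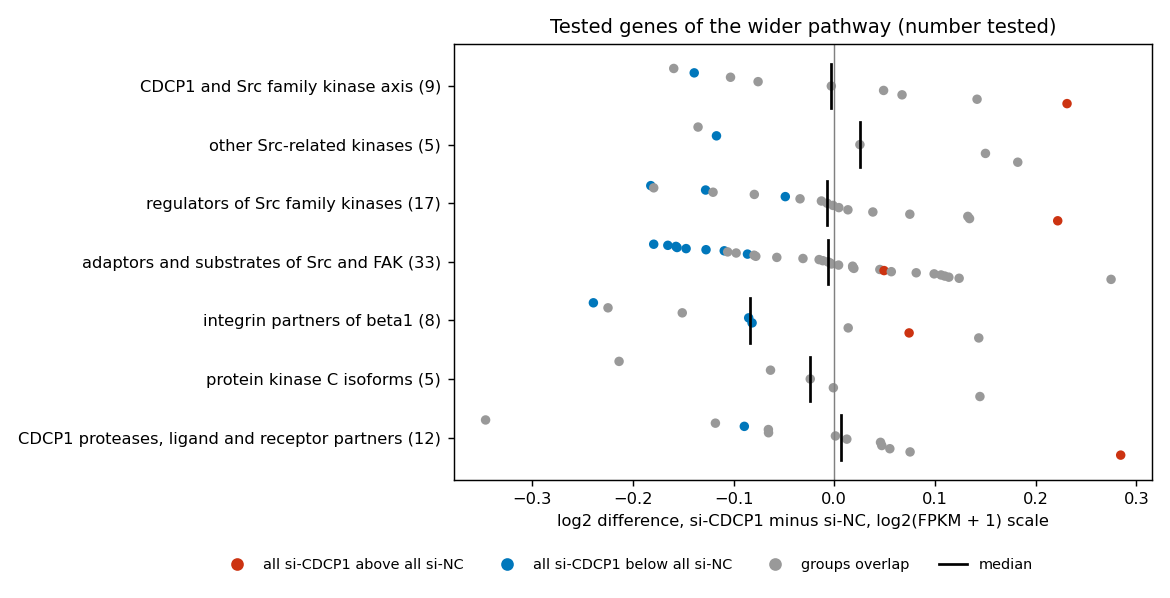
Log2 difference, si-CDCP1 minus si-NC, on the log2(FPKM + 1) scale (x axis) of each tested gene of the axis and of the 6 lists of the wider pathway (y axis, number tested in parentheses), coloured red or blue where all si-CDCP1 libraries lay above or below all si-NC libraries, with a bar at each median. Points lie on both sides of 0 in every list, and Arf6 (0.28) and Fyn (0.23) are the red points farthest to the right.

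Genes whose profile over the 6 libraries was most like that of each kinase were found by the root mean square difference of log2(FPKM + 1) after centring. For Src they were the pseudogene Rpsa-ps10 (0.015) and the adhesion gene Cadm4 (0.022), where the SD of Src itself was 0.11. For Fyn they were Dnajc2 (0.011) and the histone gene H3f3b (0.019), with an SD of 0.17 for Fyn. For Yes1 they were Elovl5 (0.0052) and Pola1 (0.014), and for Lyn Robo1 (0.037) and Kptn (0.042), with SDs of 0.087 and 0.13. With 6 libraries such likeness is a description of these values only.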

How the data were processed

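The authors deposited FPKM for 6 libraries in 1 table with mouse Ensembl identifiers, gene positions and lengths, per the file headers. The build is mm10, per the submitters' processing notes; no source used here names the aligner, the counter or how strand was handled. Per the labels' protocols, 1.3 µg of total RNA per library was made into libraries with a kit for polyadenylated RNA. Each FPKM times gene length was a whole multiple of 1 step per library (100 percent of values within 0.01), which gave the reads back; intervals and floors (3 reads) cover counting error only. Limma 3.58.1 (R 4.3.3, intensity trend, two-sided) was run on log2(FPKM + 1) of genes whose mean reached 1 FPKM. It was also run on simulated data, with equal spread in both groups and with changes larger than those of the axis genes. That run cannot show how well differences of the size reported here are found. Named were the 10 genes and, from each list, the 2 genes with the smallest p and the most abundant one; Itga5, Pag1, Bcar1, Prkd3, St14, Plg, Cd6, Ilk and the kinases Abl2, Fgr, Blk and Frk were added after their values were seen. One kinase is not reported here. Genes and lists were chosen with earlier results of these data known. Alternatives were other pseudocounts, filters, scalings and variance models, weighted libraries, a replicate block, a table limited to protein-coding genes, removal of the length trend, voom on the recovered reads and each library left out.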

Additional observations from a re-analysis of the deposited data

How the results depend on the processing

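Cdcp1 had the fewest reads of the axis, at most 5 in a library, and the cause was not tested. Lyn had 193 to 310 reads, a counting error of 6.57 percent per library. Of the 9 tested genes, 0 were called in any of the 21 alternatives other than library weights, where 1, Fyn, was called; Lyn is not tested with the filter at 5 FPKM. Over all genes, limma called 0 in the fit reported above (1722 at an unadjusted p under 0.05), 7 without a filter, 2 and 4 with filters at 0.1 and 5 FPKM, 2 after quantile normalisation, 1 with equal FPKM sums, 1 with equal read numbers, 2 among protein-coding genes, 3 with the length trend removed and 865 with library weights. Voom called 5, and 493 without si-CDCP1 replicate 3, an alternative chosen after seeing the data; leaving out 1 library at a time in limma gave 0 to 1 genes over all and 0 to 0 of the axis. With the replicate number as a block, limma called 1 gene and 0 of the axis. The deviations of same-numbered libraries correlated at -0.020, 0.026 and 0.022, and not every library correlated best with its own number. With 3 libraries per group these values cannot decide whether same-numbered cultures were handled together, and the labels give no pairing. Of the 9 genes, 2 changed direction in some setting: Yes1 went to -0.00049 with equal FPKM sums and to -0.017 in voom without si-CDCP1 replicate 3, and ranged from -0.013 to 0.11 when 1 library was left out, and Prkcd from -0.016 to 0.0062. The Cdcp1 read ratio ranged from 0 (without si-CDCP1 replicate 2) to 1.64, and was 0.899 without si-NC replicate 3. The cause of these shifts was not tested.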

Other observations

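Ilk, the integrin-linked kinase that forms a complex with alpha-parvin at adhesions, was at 0.454, 0.738 and 0.326 FPKM in si-NC replicates 1, 2 and 3 and at 0.589, 0.358 and 0.654 FPKM in si-CDCP1 replicates 1, 2 and 3, below the filter, while Parva averaged 17.9 FPKM over the 6 libraries. In the table the Ilk model (plus strand of mm10 chromosome 7, from 105736592 to 105742925) overlaps Taf10 and Rrp8 on the minus strand, with means of 10.8 and 9.38 FPKM. Whether reads of Ilk were counted for these genes or dropped was not tested, since the treatment of overlaps is not given in the sources used here.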
